A study of Mus musculus with 6 samples.

Results

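The transcripts of 10 chemokine genes were examined in liver RNA: Ccl2, Ccl5, Ccl6, Ccl9, Cxcl1, Cxcl9, Cxcl10, Cxcl12, Cxcl14 and Cxcl16. They were chosen by name, each matched 1 gene, and they stand among 47719 genes in the FPKM table. The groups were 3 Atoh8 knockdown libraries (shAtoh8 in the series design, ATOH8 knockdown in the sample labels) and 3 control libraries (shNC in the design, WT in the labels). Every mouse was C57BL/6 and had eaten 0.1% DDC for 17 days, so injury by this porphyrinogenic diet is common to both groups and no uninjured liver is compared. Atoh8 codes for a transcription factor of the basic helix-loop-helix class. The sources used here give neither the delivery of the hairpin nor the age of the mice. Nor do they say whether replicates were separate animals, so the spread behind each p-value is that between libraries and may be technical. Values given below for knockdown or control livers are those of the libraries, and n counts libraries.

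Chemokines are small secreted proteins that direct the movement of leukocytes through G protein-coupled receptors. The CC and CXC families are named for the spacing of their first cysteines. In injured liver, Kupffer cells, hepatocytes, stellate cells, endothelium and bile duct cells all can secrete them. CCL2 draws monocytes through CCR2, CXCL1 draws neutrophils through CXCR2, and CXCL9 and CXCL10 are induced by interferon and draw T and NK cells through CXCR3. CXCL12 is a constitutive ligand of CXCR4, and CXCL16 is made as a membrane-bound ligand of CXCR6 that ADAM10 can shed.

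Promoters of 7 of the 10 genes were found in the RefSeq table of GRCm38.p6, each as 250 bases before and 50 bases after the start site. The letters GGAANTTCC (part of an NF-kB site, the same on both strands), GAAANNGAA (part of an interferon-stimulated response element) and TTCNNNGAA (the gamma-activated sequence, the same on both strands) were searched on both strands. These occurred in 0.928%, 8.56% and 8.30% of all 32851 promoters in the table. The 4 promoters with a match are shown, since they include the genes with the largest fold changes here, Cxcl14 and Cxcl9. Capitals mark the matches, 5′ to 3′ along the gene's strand, and no match overlapped another.

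Cxcl1 (chr5:90890995-90891294, plus strand): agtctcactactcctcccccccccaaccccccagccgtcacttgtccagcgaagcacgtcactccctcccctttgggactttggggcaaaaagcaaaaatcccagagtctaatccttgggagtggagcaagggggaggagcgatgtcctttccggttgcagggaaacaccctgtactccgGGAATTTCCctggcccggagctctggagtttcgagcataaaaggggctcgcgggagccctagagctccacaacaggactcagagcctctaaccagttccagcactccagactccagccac

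Cxcl9 (chr5:92328030-92328329, minus strand): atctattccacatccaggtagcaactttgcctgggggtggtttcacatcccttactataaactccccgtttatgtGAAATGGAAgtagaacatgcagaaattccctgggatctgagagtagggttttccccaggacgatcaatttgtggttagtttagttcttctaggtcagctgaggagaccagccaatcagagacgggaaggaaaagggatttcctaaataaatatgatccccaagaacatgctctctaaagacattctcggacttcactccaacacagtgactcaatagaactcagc

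Cxcl10 (chr5:92348840-92349139, minus strand): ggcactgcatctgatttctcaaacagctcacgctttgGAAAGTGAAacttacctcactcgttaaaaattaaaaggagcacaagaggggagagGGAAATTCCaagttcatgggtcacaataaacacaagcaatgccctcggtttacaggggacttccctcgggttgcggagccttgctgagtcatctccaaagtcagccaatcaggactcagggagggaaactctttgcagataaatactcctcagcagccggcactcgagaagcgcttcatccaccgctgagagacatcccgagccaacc

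Cxcl14 (chr13:56296502-56296801, minus strand): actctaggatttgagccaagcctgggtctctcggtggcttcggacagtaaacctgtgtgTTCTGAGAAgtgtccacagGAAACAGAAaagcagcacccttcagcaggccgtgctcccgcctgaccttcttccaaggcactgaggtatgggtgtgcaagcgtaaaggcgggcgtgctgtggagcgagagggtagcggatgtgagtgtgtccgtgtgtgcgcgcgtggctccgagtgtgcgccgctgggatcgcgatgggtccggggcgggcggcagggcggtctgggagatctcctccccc

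Cxcl1 held the NF-kB letters at position -70 from the start site, and Cxcl10 held them at -158. The interferon element letters began at -175 in Cxcl9, at -213 in Cxcl10 and at -172 in Cxcl14. Cxcl14 also held the gamma-activated sequence at -191. The windows of Ccl6, Ccl9 and Cxcl12 held none of the 3 sets of letters. These matches describe the sequence and say nothing of binding. Other forms of these sites were not searched and would stay unmarked.

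The labels name the tissue liver and the cell type hepatocyte, the design text speaks of hepatocytes, and the protocol describes RNA of removed livers. The 5 hepatocyte markers summed to 95684 to 107283 CPM (reads scaled to a fixed library total, with TMM factors) in knockdown and 96995 to 131258 CPM in control libraries. Kupffer cell, endothelial and stellate cell markers were detected too, as given at the end. Reads in genes ran from 31912058 to 37969644 per library. Atoh8 itself stood at 10.2, 9.83 and 5.64 CPM in knockdown replicates 1 to 3, against 63.8, 16.8 and 16.4 CPM in control replicates 1 to 3. With all 6 libraries its log2 fold change, -1.92 (SE 0.58), missed the threshold at an edgeR adjusted p of 0.197, whereas DESeq2 (adjusted p = 0.0181) and edgeR with an offset for GC content and transcript length (adjusted p = 0.0342) called it lower. It fell by 0.95 without control replicate 1 (SE 0.23, edgeR adjusted p = 0.0115). That control differed from the other controls over the whole transcriptome. Its log2 CPM correlated with theirs at 0.916 and 0.907 over genes, against 0.984 between those. Control replicate 1 correlated with knockdown replicates 1 to 3 at 0.939, 0.947 and 0.922, higher than with either other control. Control replicates 2 and 3 correlated with the knockdown libraries at 0.937 to 0.956. The chemokine genes are therefore tested with and without control replicate 1.

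No chemokine gene of the 10 passed the edgeR quasi-likelihood test with all 6 libraries, at a Benjamini-Hochberg adjusted p under 0.05 over 13767 genes. That test called 0.741% of genes higher and 0.123% lower, which is 102 and 17 genes. All 10 were abundant enough to test, and in bulk RNA fewer cells of a type and less transcript per cell cannot be told apart. At an unadjusted p under 0.05, 4 were higher (Ccl6, Ccl9, Cxcl9 and Cxcl14) and 0 lower, against 9.14% and 5.40% of all tested genes. The knockdown libraries all lay above the controls for 6 of the 10 (Ccl2, Ccl6, Ccl9, Cxcl9, Cxcl10 and Cxcl14), against 13.0% of tested genes, and all below for 1 (Cxcl12), against 10.0%. These counts are of CPM. In the deposited FPKM, Ccl2 and Ccl9 overlapped through control replicate 1, which left 4 of the 10 above, against 10.9% of 12279 genes, and Cxcl12 below, against 11.3%. The median log2 fold change was 0.69 over the 10 genes and -0.05 over all tested genes. DESeq2 called 1 member higher, Cxcl14 (adjusted p = 0.00664), and 0 lower, where it called 3.73% and 1.40% of genes. Limma on log2(FPKM + 1) called none of the 10, against 0.871% higher and 0.220% lower over all genes, and likewise with a pseudocount of 0.1, against 0.554% and 0.171%. None passed under median ratio size factors (0.726% of genes higher and 0.131% lower), without a filter on low counts (0.928% and 0.148%), with 1 CPM in 3 libraries (0.967% and 0.168%) or with the replicate number as a block (0.240% and 0.0145%). Of the fits that leave out another library, 2 made calls over all genes and neither called a member, without control replicate 3 (0.141% higher and 0.00707% lower) and without knockdown replicate 2 (0.0707% higher). Limma-voom with quality weights gave control replicate 1 a weight of 0.0835, and it called 7 higher and 1 lower, against 18.7% and 18.2% of genes.

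Without control replicate 1, 6 of the 10 rose in the knockdown livers and 0 fell: Ccl2, Ccl6, Ccl9, Cxcl9, Cxcl14 and Cxcl16. That fit compared 3 knockdown with 2 control libraries and called 16.5% of 14222 genes higher and 16.1% lower. The median log2 fold change of the 10 genes was 1.07 in it, against 0.01 for all genes. An offset for GC content and transcript length, added after seeing the data, left 6 higher in that fit, and Cxcl12 fell by 0.62 (edgeR adjusted p = 0.00525), against 12.0% of genes higher and 21.2% lower. With all 6 libraries the same offset called 317 genes higher and 335 lower (2.30% and 2.43%), Cxcl14 alone of the 10 among the higher, and moved the median of all genes to -0.17.

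**Figure D1:**
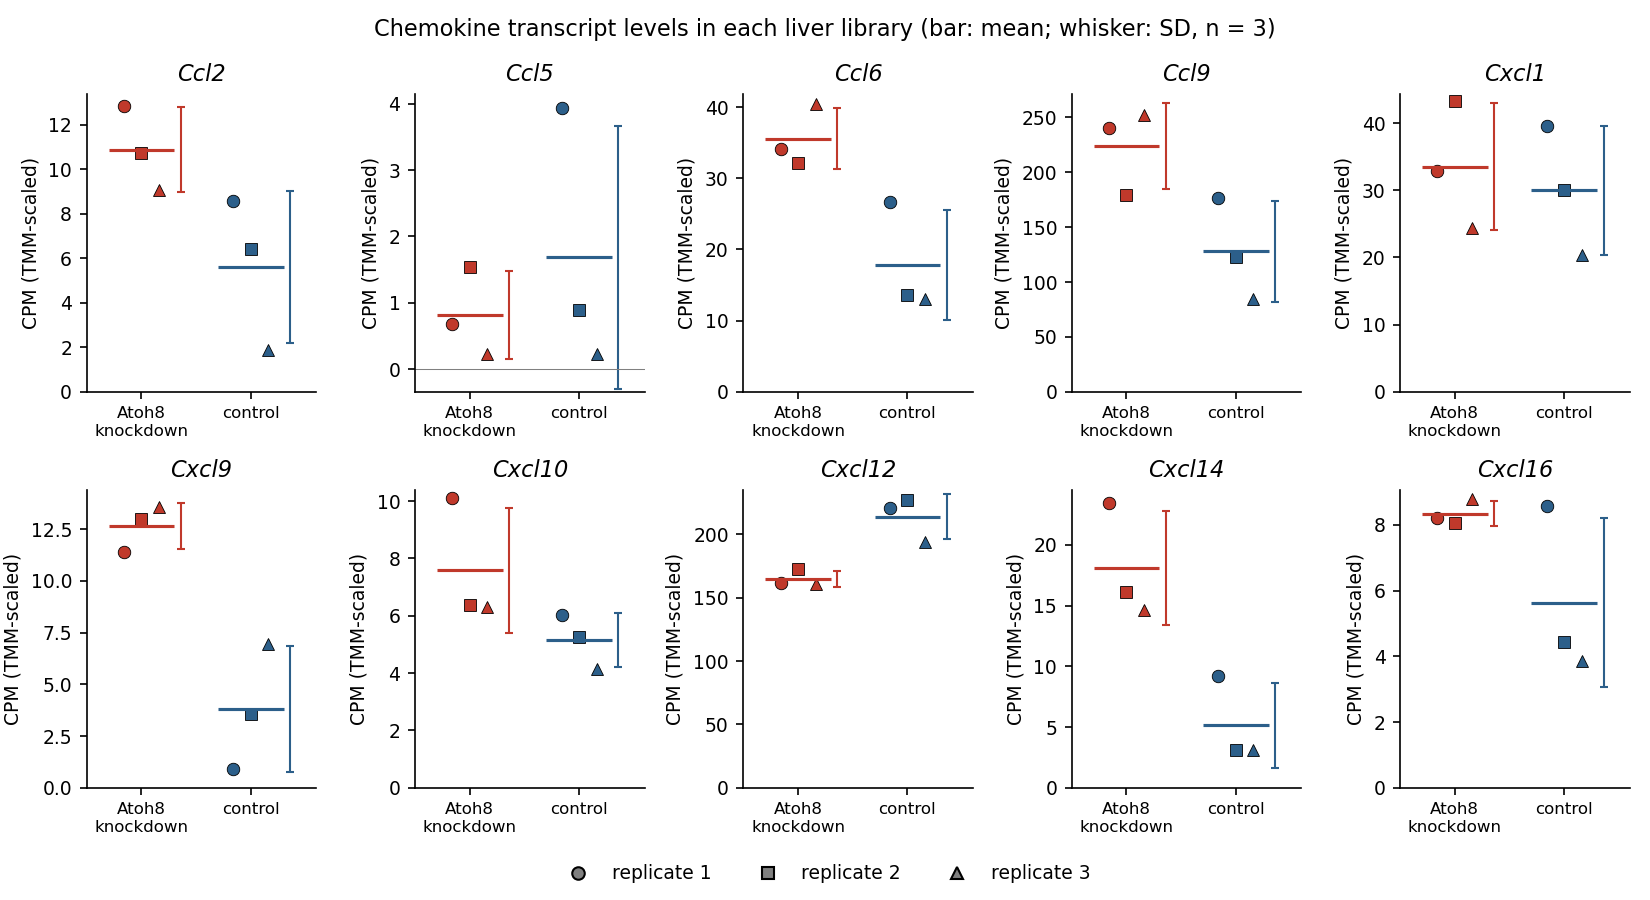
Levels of the 10 chemokine genes in CPM (vertical axes, linear) in the 3 Atoh8 knockdown and 3 control libraries, with marker shape giving the replicate number, bars the mean and whiskers the SD. Cxcl14, Cxcl9 and Ccl6 lie higher in every knockdown library, Cxcl12 lies lower, and for Ccl5, Cxcl1 and Cxcl16 control replicate 1 lies within or above the knockdown values.

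Ccl2 (ENSMUSG00000035385, GRCm38 chromosome 11, 82035571 to 82037453, plus strand), the monocyte attractant, had 12.8, 10.7 and 9.04 CPM in knockdown replicates 1 to 3. Its controls had 8.58, 6.39 and 1.88 CPM. The groups did not touch in CPM, but the controls spread 4.55-fold. In FPKM control replicate 1, at 14.2, lay above knockdown replicate 3, at 13.4. The means were 10.9 ± 1.91 CPM in knockdown and 5.62 ± 3.41 CPM in control libraries (SD, n = 3 libraries each). The log2 fold change of 0.95 (SE 0.50) had a 95% interval of -0.22 to 2.12 and missed the threshold (edgeR adjusted p = 0.445). Ccl2 rose by 1.40 (SE 0.40, edgeR adjusted p = 0.0236) once control replicate 1 was left out.

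Ccl6 (ENSMUSG00000018927, chromosome 11, 83587882 to 83593087, minus strand) and Ccl9 (ENSMUSG00000019122, 83572919 to 83578636, minus strand) are myeloid chemokine genes of rodents. They lie 9245 bases apart, and Ccl5 lies 42400 bases beyond Ccl9. Ccl6 stood at 34.1, 32.2 and 40.4 CPM in knockdown and 26.7, 13.6 and 13.1 CPM in control replicates 1 to 3. For Ccl6 the log2 fold change was 1.00 (SE 0.31, edgeR adjusted p = 0.210). Ccl9 stood at 240, 180 and 252 CPM in knockdown and 176, 123 and 84.7 CPM in control replicates. Its log2 fold change was 0.81 (SE 0.30, edgeR adjusted p = 0.274). For both genes control replicate 1 was the highest control and in CPM still lay below every knockdown library. In FPKM that held for Ccl6 and not for Ccl9, where control replicate 1 had 139 FPKM and knockdown replicate 2 had 124 FPKM. Without it Ccl6 rose by 1.43 (SE 0.15, edgeR adjusted p = 0.000282) and Ccl9 by 1.12 (SE 0.21, edgeR adjusted p = 0.00330).

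Ccl5 (ENSMUSG00000035042, chromosome 11, 83525778 to 83530518, minus strand), a T cell and macrophage attractant, had the fewest reads of the 10 over all libraries. It had 28, 59 and 10 reads in knockdown and 119, 31 and 7 reads in control replicates 1 to 3, or 0.679, 1.54 and 0.233 CPM against 3.94, 0.889 and 0.227 CPM. The knockdown range lay inside the control range, and control replicate 1 was the highest of all 6. Its log2 fold change was -1.04, with an interval of -3.43 to 1.35 (edgeR adjusted p = 0.700). The sign turned without control replicate 1 (0.53, edgeR adjusted p = 0.640). Neither direction was detectable for Ccl5 against this spread, and a filter of 1 CPM in 3 libraries removed it.

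Cxcl9 (ENSMUSG00000029417, chromosome 5, 92321347 to 92328079, minus strand) and Cxcl10 (ENSMUSG00000034855, 92346638 to 92348889, minus strand) lie 18558 bases apart. Cxcl9 had 11.4, 13.0 and 13.6 CPM in knockdown and 0.894, 3.58 and 6.95 CPM in control replicates 1 to 3. The knockdown libraries lay within 1.19-fold of each other, whereas the controls spread 7.78-fold. Cxcl9 was the only one of the 10 for which control replicate 1 was the lowest control. Its mean was 3.32-fold the control mean, with a log2 fold change of 1.73 (SE 0.62, interval 0.29 to 3.17, edgeR adjusted p = 0.261). Leaving out control replicate 1 lowered the fold change to 1.28 and narrowed its error (SE 0.26, edgeR adjusted p = 0.00521), so that Cxcl9 passed as higher.

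Cxcl10 had 10.1, 6.38 and 6.29 CPM in knockdown and 6.03, 5.25 and 4.16 CPM in control replicates. The groups were separate by a narrow margin, and knockdown replicate 1 alone stood well above the rest. The log2 fold change was 0.56 (SE 0.29, edgeR adjusted p = 0.437) and, without control replicate 1, 0.70 (SE 0.26, edgeR adjusted p = 0.0627), so the gene passed in neither fit. Cxcl11, the third CXCR3 ligand, overlapped between groups at 1.96, 0.993 and 1.63 CPM in knockdown and 0.695, 2.81 and 1.62 CPM in control livers. The gene Art3 on the opposite strand overlaps Cxcl10 and Cxcl11, and other opposite-strand genes overlap Ccl2, Ccl6 and Cxcl16. No source used here says whether the counting was stranded, so such reads cannot be told apart.

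Cxcl1 (ENSMUSG00000029380, chromosome 5, 90891241 to 90893115, plus strand), the neutrophil attractant, had 32.8, 43.3 and 24.4 CPM in knockdown and 39.6, 30.1 and 20.4 CPM in control livers. The groups interleaved. Its log2 fold change was 0.16, with an interval of -0.57 to 0.89 (edgeR adjusted p = 0.857). It passed in neither fit (0.42 without control replicate 1, edgeR adjusted p = 0.197), and its sign turned without control replicate 3 or knockdown replicate 2.

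Cxcl12 (ENSMUSG00000061353, chromosome 6, 117168535 to 117181367, plus strand) was the only one of the 10 whose knockdown libraries all lay below the controls. It had 162, 172 and 161 CPM in knockdown and 221, 227 and 194 CPM in control replicates 1 to 3. The replicates were tight in both groups, within 1.07-fold in knockdown and 1.17-fold in control libraries, and the groups did not overlap. The log2 fold change of -0.37 (SE 0.17) had an interval of -0.76 to 0.02 and missed the threshold (edgeR adjusted p = 0.364). The value hardly moved without control replicate 1 (-0.34, SE 0.14, edgeR adjusted p = 0.0857).

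Cxcl14 (ENSMUSG00000021508, chromosome 13, 56288643 to 56296551, minus strand), a chemokine of epithelia and stroma, had the largest fold change of the 10. It stood at 23.5, 16.1 and 14.7 CPM in knockdown, against 9.17, 3.12 and 3.09 CPM in control replicates 1 to 3. The lowest knockdown library lay above the highest control, which was again control replicate 1. Means were 18.1 ± 4.72 CPM in knockdown and 5.13 ± 3.50 CPM in control libraries (SD, n = 3 libraries each), a 3.53-fold ratio. The log2 fold change was 1.82 (SE 0.48, interval 0.70 to 2.93, edgeR adjusted p = 0.150). Against control replicates 2 and 3 alone, which lay within 1.01-fold of each other, Cxcl14 rose by 2.55 (SE 0.24, edgeR adjusted p = 0.000196).

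Cxcl16 (ENSMUSG00000018920, chromosome 11, 70453983 to 70459984, minus strand) had 8.19, 8.05 and 8.79 CPM in knockdown and 8.58, 4.44 and 3.87 CPM in control replicates 1 to 3. Control replicate 1 lay within the knockdown range, and the other 2 controls lay at about the same lower level. With all libraries the log2 fold change was 0.57 (SE 0.34, edgeR adjusted p = 0.503). It rose by 1.02 without control replicate 1 (SE 0.20, edgeR adjusted p = 0.00407), so the call rests on which controls are used.

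**Figure D2:**
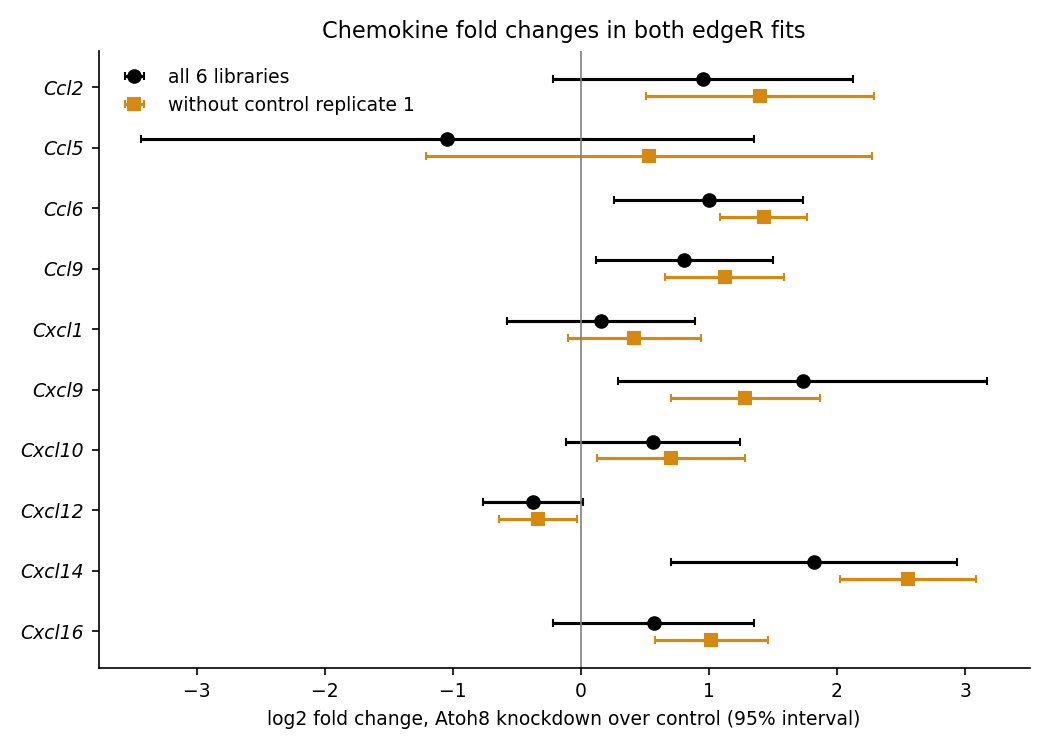
Log2 fold changes, Atoh8 knockdown over control, with 95% intervals from edgeR for each chemokine gene, with all 6 libraries (circles) and without control replicate 1 (squares). Intervals narrow for most genes in the second fit, Cxcl14 lies farthest right in it at 2.55, and Ccl5 changes side of 0.

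Control replicate 1 was the highest control for 8 of the 10 genes, the middle one for Cxcl12 and the lowest for Cxcl9. Over all tested genes it was the highest in 47.6% and the lowest in 41.8%. It lay within or above the knockdown range for Ccl5, Cxcl1, Cxcl12 and Cxcl16, which is 40% of the 10 genes, against 57% of all tested genes. Ccl2, Ccl6, Ccl9, Cxcl10 and Cxcl14 had, in CPM, control replicate 1 between the other controls and the knockdown libraries. The share of all genes with that order was not counted. On the log2 CPM scale control replicate 1 lay 1.00 above the mean of control replicates 2 and 3 for Ccl6, where the knockdown mean lay 1.40 above that mean.

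Levels between genes were compared per length, as FPKM. Ccl9 was the most abundant at 153 ± 26.1 FPKM in knockdown and 98.6 ± 35.8 FPKM in control libraries (SD, n = 3 libraries each). Cxcl12 followed at 61.0 ± 4.05 FPKM in knockdown and 82.1 ± 8.16 FPKM in control livers. In the knockdown group the ranges of these did not overlap, while in the control group they did. Then came Cxcl1 (38.7 and 34.4 FPKM in knockdown and control), Ccl6 (32.8 and 17.5 FPKM) and Ccl2 (16.7 and 8.93 FPKM), with Cxcl1 and Ccl6 overlapping in both groups. The other 5 averaged 2.62 to 10.3 FPKM in knockdown and 1.56 to 5.69 FPKM in control livers. In the control group all neighbours in the order overlapped except Cxcl12 and Cxcl1. Knockdown neighbours overlapped at 4 of 9 steps, from Cxcl1 to Ccl6, Cxcl14 to Cxcl10, Cxcl16 to Cxcl9 and Cxcl9 to Ccl5. Cxcl14 held rank 6 in knockdown and rank 9 in control livers, and Ccl5 held rank 10 and rank 6. Of the summed FPKM of the 10 genes, Cxcl12 made up 16.7%, 20.5% and 17.8% in knockdown replicates and 25.3%, 35.6% and 37.2% in control replicates, with no overlap. The sum itself was 362, 318 and 321 FPKM in knockdown and 345, 243 and 195 FPKM in control replicates 1 to 3. A share thus also moves with the other genes in the sum.

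**Figure D3:**
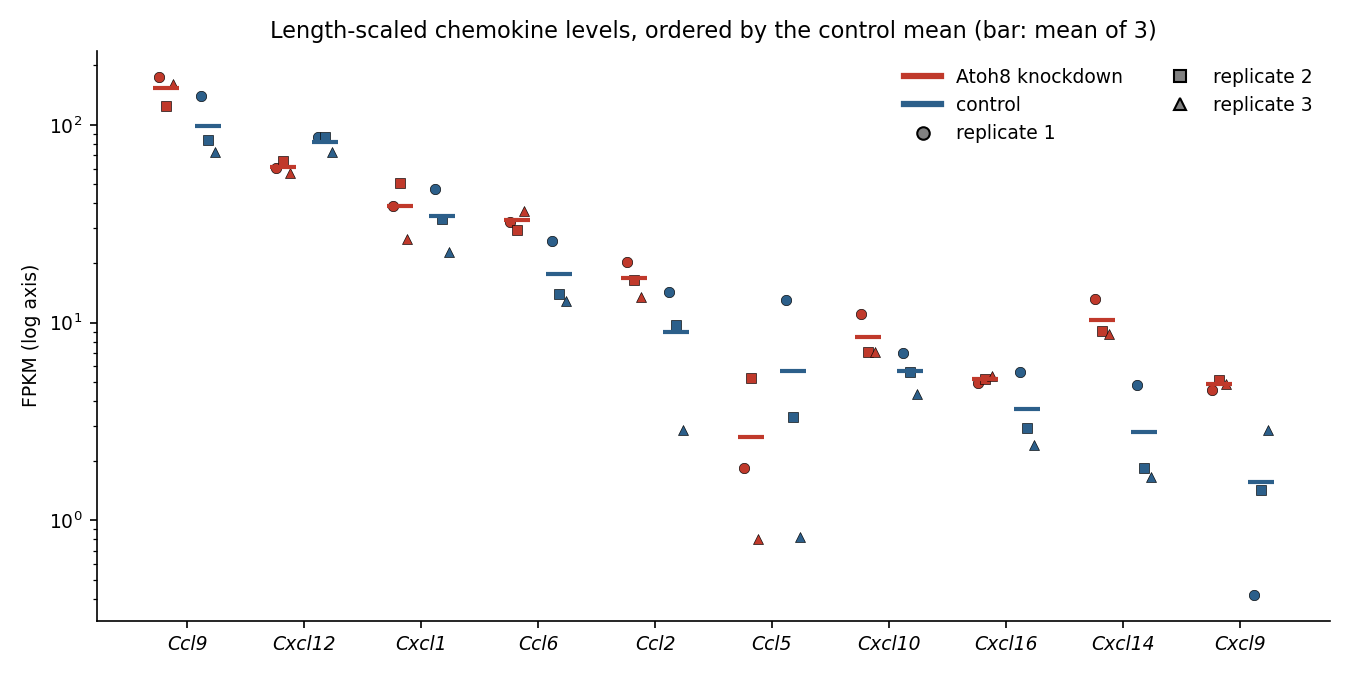
Length-scaled levels (FPKM, log axis) of the 10 chemokine genes in each library, ordered by their control mean, with bars for the mean of 3. Ccl9 and Cxcl12 lead in both groups, and the knockdown points of Cxcl14 and Cxcl9 lie clear of their control points.

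Among the other 28 chemokine ligand genes, 9 were abundant enough to test and 7 had no read in any library. None passed edgeR in either direction with all libraries, 2 were higher and 1 lower at an unadjusted p under 0.05 (9.14% and 5.40% over all genes), and DESeq2 called none. The median log2 fold change of the 9 was 0.65. Ccl3, a macrophage inflammatory protein, had 0.703, 1.36 and 0.839 CPM in knockdown and 0.265, 0.459 and 0.487 CPM in control livers (log2 fold change 1.25, edgeR adjusted p = 0.288). Ccl25, the CCR9 ligand, had 1.79, 2.12 and 2.33 CPM against 2.88, 5.82 and 4.48 CPM (log2 fold change -1.08, edgeR adjusted p = 0.206). Without control replicate 1, Ccl24 rose by 1.74 (edgeR adjusted p = 0.0138) and Ccl25 fell by 1.29 (edgeR adjusted p = 0.00489). That is 1 higher and 1 lower of 12 ligands tested, in a fit that called 16.5% of all genes higher and 16.1% lower. Cx3cl1, the ligand of CX3CR1, had 0.582, 0.418 and 1.10 CPM in knockdown and 0.298, 0.287 and 0.260 CPM in control livers, and did not pass (edgeR adjusted p = 0.309). Cxcl2, a neutrophil attractant like Cxcl1, reached 2.17 CPM in knockdown replicate 2 alone and stayed between 0.298 and 0.679 CPM in the other 5 libraries.

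Receptor transcripts were scarce. Of 19 genes listed as chemokine receptors 6 were tested, and of 4 atypical scavenging receptors 3 were. None passed edgeR with all libraries, 2 were higher and 0 lower at an unadjusted p under 0.05 (9.14% and 5.40% over all genes), and DESeq2 called Ccr2 alone (adjusted p = 0.0343). Ccr2, the CCL2 receptor of inflammatory monocytes, had 0.848, 1.10 and 1.33 CPM in knockdown and 0.199, 0.487 and 0.130 CPM in control replicates 1 to 3. That is 35, 42 and 57 reads against 6, 17 and 4, and the groups did not overlap. Its log2 fold change was 1.98 (SE 0.56, edgeR adjusted p = 0.177), and without control replicate 1 it rose by 1.80 (edgeR adjusted p = 0.0414). Cx3cr1, a receptor of monocytes and monocyte-derived macrophages, had 3.15, 2.69 and 3.54 CPM against 2.19, 0.487 and 0.487 CPM (log2 fold change 1.57, edgeR adjusted p = 0.302). It rose by 2.69 without control replicate 1 (edgeR adjusted p = 0.000617), as did Ccrl2 by 1.51 and Cxcr4, the CXCL12 receptor, by 1.12 (edgeR adjusted p = 0.0126 and 0.0461). With Ccr2, 4 of 9 receptors were higher and 0 lower in that fit, which called 16.5% of all genes higher and 16.1% lower. In CPM 2 of the 6 tested receptors and 1 of the 3 atypical ones lay above all controls, against 13.0% of all genes.

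Ccr1, a receptor of several CC chemokines, passed in neither fit. It had 0.412, 0.810 and 0.723 CPM in knockdown and 0.497, 0.545 and 0.585 CPM in control livers (log2 fold change 0.26, edgeR adjusted p = 0.829). Receptors that mark lymphocytes and neutrophils were below the filter. Cxcr3 had 6, 5 and 7 reads in knockdown and 1, 0 and 1 in control replicates, Cxcr6 had 4, 3 and 5 against 0, 9 and 0, and Cxcr2 had 2, 0 and 0 against 9, 0 and 1. Ackr3, which scavenges CXCL12, had 10, 5 and 36 reads in knockdown and 0, 5 and 1 in control replicates and was not tested. Ackr2, a scavenger of inflammatory CC chemokines, had 2.01, 2.06 and 2.21 CPM in knockdown and 1.99, 1.40 and 0.845 CPM in control livers (log2 fold change 0.57, edgeR adjusted p = 0.559; the groups overlapped in FPKM).

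**Figure D4:**
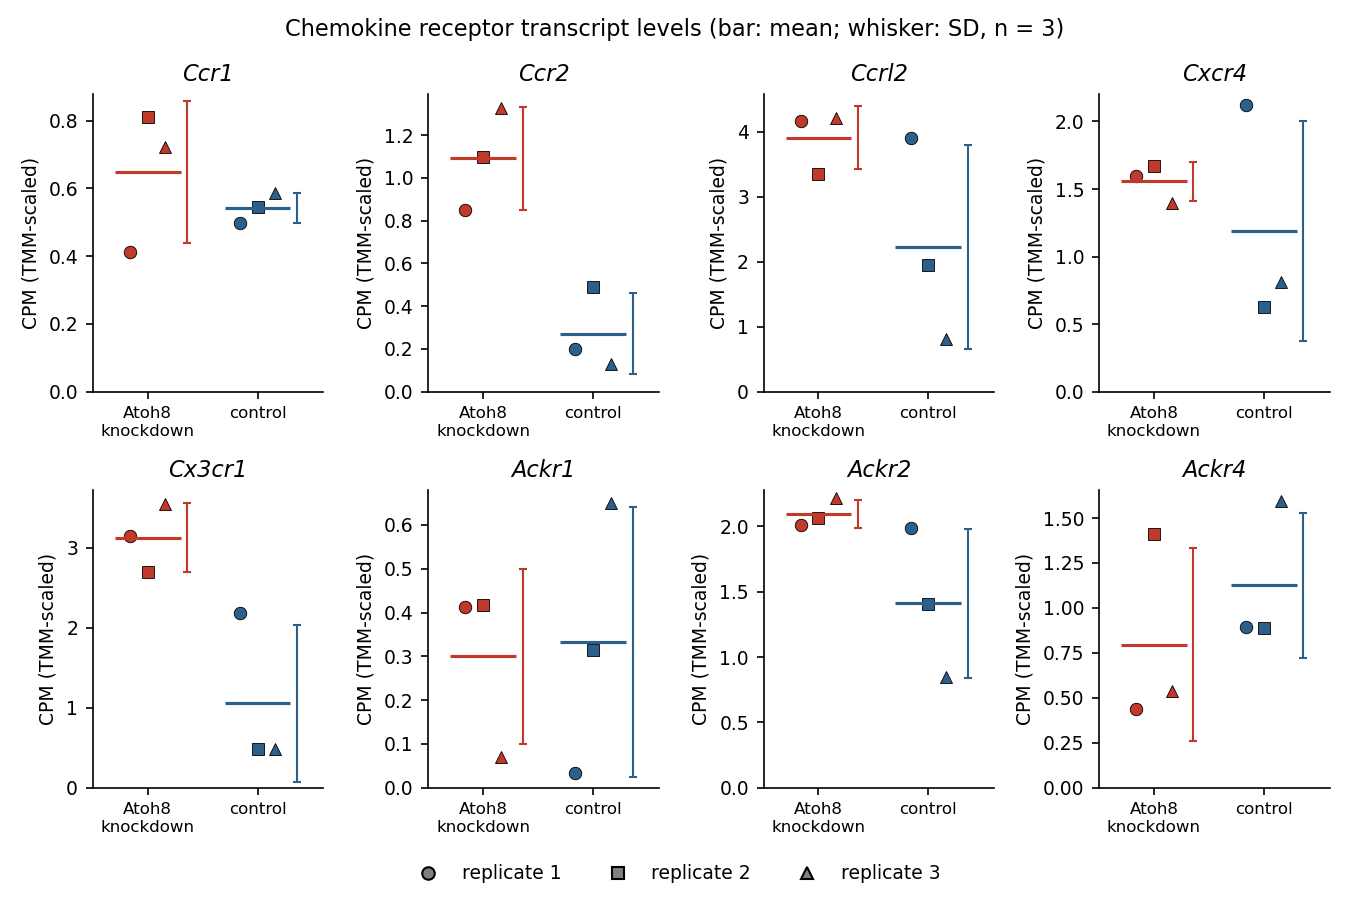
Levels of Ccr1, Ccr2, Ccrl2, Cxcr4, Cx3cr1, Ackr1, Ackr2 and Ackr4 in CPM (linear axes) in the Atoh8 knockdown and control libraries, with marker shape giving the replicate, bars the mean and whiskers the SD. In CPM Ccr2, Cx3cr1 and, narrowly, Ackr2 have knockdown points above all control points, and the others overlap.

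Proteases that cut chemokines were measured beside them. Mmp12, the macrophage elastase, had 48.4, 40.0 and 39.6 CPM in knockdown and 32.3, 12.0 and 5.56 CPM in control livers (log2 fold change 1.36, edgeR adjusted p = 0.334). It rose by 2.29 without control replicate 1 (edgeR adjusted p = 0.000415). Dpp4, which trims CXCL9, CXCL10 and CXCL12, had 124, 126 and 141 CPM against 58.6, 253 and 261 CPM, so that control replicate 1 lay below and the other controls above the knockdown libraries (log2 fold change -0.55, edgeR adjusted p = 0.673). Dpp4 fell by 0.96 without control replicate 1 (edgeR adjusted p = 0.000851), where 16.5% of all genes were called higher and 16.1% lower. Adam10, which sheds CXCL16, had 43.8, 35.0 and 46.3 CPM in knockdown and 14.5, 49.4 and 49.8 CPM in control livers (log2 fold change 0.14, edgeR adjusted p = 0.921).

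Of 25 genes of NF-kB and interferon signalling upstream of chemokines, 23 were tested and none passed edgeR with all libraries. At an unadjusted p under 0.05 there were 3 higher and 0 lower (9.14% and 5.40% over all genes), the median log2 fold change was 0.27, and DESeq2 called none. Both chains of the interferon gamma receptor were among the 3. Ifngr1 had 38.2, 28.1 and 37.8 CPM in knockdown and 25.9, 19.8 and 14.9 CPM in control livers, and Ifngr2 had 41.1, 32.9 and 41.3 CPM against 28.9, 19.6 and 18.5 CPM. Their log2 fold changes were both 0.78 (edgeR adjusted p = 0.232 and 0.200). Il1r1, the interleukin 1 receptor gene, had 69.2, 94.4 and 61.8 CPM in knockdown and 44.8, 57.5 and 48.9 CPM in control livers (log2 fold change 0.58, edgeR adjusted p = 0.297). In CPM every knockdown library lay above every control for these 3 genes, while in FPKM Il1r1 overlapped. Over the list that held in CPM for 4 of 23 tested genes, near the 13.0% of all tested genes. None of the list lay below all controls, against 10.0%. Without control replicate 1, 9 of 24 rose and 1 fell, in a fit that called 16.5% of genes higher and 16.1% lower. In it Ifngr1 and Ifngr2 rose by 1.01 and 1.03 (edgeR adjusted p = 0.00316 and 0.000977). Ifng, the interferon itself, had 1 read in all 6 libraries together. Irf1, an interferon-induced transcription factor gene, stood at 25.9, 17.5 and 23.9 CPM in knockdown and 27.9, 17.7 and 11.1 CPM in control livers, and passed in neither fit.

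Markers of Kupffer cells and macrophages were summed beside the chemokines. The 6 Kupffer cell markers summed to 313 to 373 CPM in knockdown livers, against 313, 208 and 195 CPM in control replicates 1 to 3. In CPM all knockdown libraries lay above all controls for 4 of the 6, against 13.0% of all tested genes. The 10 monocyte and macrophage markers summed to 229 to 285 CPM in knockdown livers, against 255, 141 and 127 CPM in the controls. Of these, 8 of 10 overlapped between groups and 2 lay above all controls, near the 13.0% of all tested genes. Neither list had a member past edgeR with all libraries, and their median log2 fold changes were 0.52 and 0.70. Cd5l, a secreted protein gene of Kupffer cells, had 169, 158 and 190 CPM in knockdown and 152, 89.4 and 80.7 CPM in control replicates (edgeR adjusted p = 0.308). Among the macrophage markers, Lyz2, a lysozyme gene with the smallest p of that list, overlapped at 94.8, 72.4 and 109 CPM in knockdown and 73.4, 41.3 and 44.4 CPM in control replicates (log2 fold change 0.79, edgeR adjusted p = 0.259). Cd14, the lipopolysaccharide co-receptor gene, did not overlap at 47.2, 39.0 and 45.6 CPM against 37.7, 12.5 and 7.83 CPM (log2 fold change 1.18, edgeR adjusted p = 0.374). The smallest fold changes of the list were those of Csf1r, the macrophage growth factor receptor gene (0.06), and of the pan-leukocyte gene Ptprc (0.11 with all libraries and -0.39 without control replicate 1), and neither passed with all libraries. Cd5l and Cd14 had control replicate 1 between the other controls and the knockdown libraries, as Ccl6 and Ccl9 did. Lyz2 did not, since control replicate 1, at 73.4 CPM, lay above knockdown replicate 2, at 72.4 CPM. The share of all genes with that order was not counted. Without control replicate 1, 4 of 6 Kupffer cell markers and 6 of 10 macrophage markers rose, with Cd5l, Lyz2, Cd14 and Csf1r among these 2 counts, in the fit that called 16.5% of all genes higher. The same fit called higher 3 of 8 stellate cell, 2 of 4 tested dendritic cell, 1 of 6 endothelial and the 1 tested neutrophil marker, Csf3r. Their part in the Ccl2, Ccl6, Ccl9 and Cxcl16 values was not tested.

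The 8 stellate cell markers summed to 267 to 344 CPM in knockdown and 175 to 249 CPM in control livers, with a median log2 fold change of 0.31 and none past edgeR with all libraries. The collagen gene Col1a1 had the largest fold change of them, with 32.7, 20.5 and 29.6 CPM in knockdown and 12.7, 3.27 and 2.96 CPM in control replicates 1 to 3, the same order of controls as Cxcl14 (log2 fold change 2.13, edgeR adjusted p = 0.163). Col1a1 was called higher by DESeq2 (adjusted p = 0.00609), with the GC and length offset (edgeR adjusted p = 0.0446) and without control replicate 1 (3.16, edgeR adjusted p = 0.000102). The pericyte gene Rgs5 stood at -0.32 on the log2 scale with all libraries (edgeR adjusted p = 0.874) and fell by limma-voom (-0.98, adjusted p = 0.0316). The stellate cell markers' part in the Cxcl14 and Cxcl12 values was not tested. The cholangiocyte list summed to 332 to 554 CPM in knockdown and 39.5 to 51.7 CPM in control livers, nearly all of it Spp1, which rose (log2 fold change 3.67, edgeR adjusted p = 0.00985) and is not restricted to bile duct cells. Of the 5 hepatocyte markers, 2 (Cps1 and Ttr) were lower in every knockdown library, against 10.0% of all tested genes. Neither passed with all libraries (edgeR adjusted p = 0.247 and 0.273). They fell by 0.64 and 0.53 without control replicate 1 (edgeR adjusted p = 0.0468 and 0.0485), in a fit that called 16.1% of all genes lower. Alb, Apoa1 and Hnf4a passed in neither fit. The median log2 fold change of the 5 was -0.52 with all libraries and -0.05 without control replicate 1. Krt7 and Krt19, which define bile duct cells, had at most 15 and 5 reads in any library.

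Lymphocyte and neutrophil markers were near 0 in both groups. The 12 T and NK cell markers summed to 0.267 to 0.810 CPM in knockdown and 0.115 to 0.464 CPM in control livers, and Cd8b1 had no read. The 4 B cell markers summed to at most 0.280 CPM in any library. Of 8 neutrophil markers Ly6g had no read and Csf3r was the only one tested, and the list summed to 1.91 to 2.38 CPM in knockdown and 0.617 to 2.32 CPM in control livers. The 5 dendritic cell markers summed to 12.8 to 17.3 CPM in knockdown and 5.17 to 17.1 CPM in control livers. The 6 sinusoidal endothelial markers summed to 161 to 200 CPM in knockdown and 151 to 201 CPM in control livers (median log2 fold change 0.03).

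**Figure D5:**
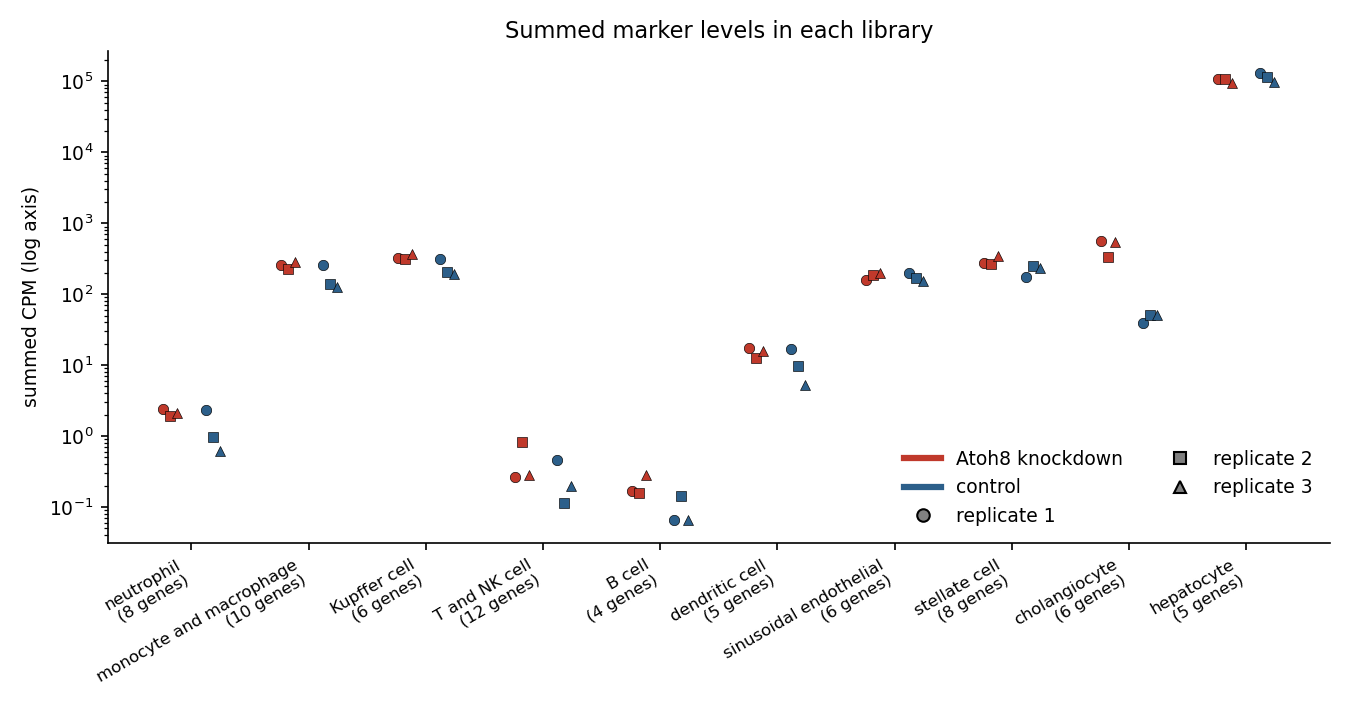
Summed CPM (log axis) of each cell type's marker list in every library, Atoh8 knockdown beside control, with marker shape giving the replicate. Kupffer cell and macrophage sums of control replicate 1 lie at the knockdown level, while T, NK and B cell sums stay under 1 CPM.

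Over the 6 libraries, the genes most like each chemokine were sought by Pearson correlation of log2 CPM. The 11123 candidates were tested genes that averaged 1 CPM or more. Genes without a standard symbol (such as Gm, Rik or numbered clones) and mitochondrially encoded genes were left out. Ccl6 was most like Ifi30, a lysosomal thiol reductase gene (0.998), and Prelp (0.997). Ccl9 was most like Dyrk3 (0.998) and Pparg (0.997), and Cxcl14 most like Clu (0.996) and the cyclin gene Ccnd1 (0.995). Cxcl16 was most like Loxl1 and Ptafr (both 0.998), Ccl2 most like Bckdk (0.996) and Zswim5 (0.995), and Cxcl9 most like the activin inhibitor gene Fst (0.995) and Atp4a (0.993). Cxcl12 was most like Acad12 (0.997) and Nprl2 (0.989), and Cxcl10 most like Prrc1 (0.986) and Kazn (0.978). Ccl5 came nearest to Zbtb11os1 and Olig1 (0.994 and 0.991), and Cxcl1 to Trp53i13 and Arhgef3 (0.981 and 0.977). With 6 libraries in 2 groups and so many candidates, values this high describe a shared order of libraries only.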

How the data were processed

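Liver RNA of 3 Atoh8 knockdown and 3 control samples was sequenced after total RNA extraction with Trizol, per the labels' protocols. The authors deposited raw read counts per gene for each library and FPKM values for all libraries. FastQC, Trim Galore, HISAT2 (listed as 2.10), HTSeq and Cufflinks 2.2.1 and the build GRCm38 are listed per the submitters' processing notes, which assign no roles here. Lines that name no gene (2.48% to 5.66% outside genes, 4.69% to 6.87% ambiguous) were left out.

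Low counts were removed by filterByExpr and libraries scaled by TMM (factors 1.04 to 1.13 in knockdown and 0.852 to 0.965 in control libraries), then tested with edgeR 4.0.16 (R 4.3.3) on group alone, with Benjamini-Hochberg adjustment over all genes. A floor of 3 reads is 0.0699 to 0.0993 CPM, a limit for counting error alone. All replicate pairs differed beyond sampling noise (chi-square per gene at least 50.2). The test was checked on simulated data in which no library stood apart. That check therefore does not cover a library like control replicate 1. Alternatives used DESeq2 1.42.0, limma 3.58.1, other scaling and filters, the replicate block, each library left out, and an offset for GC content and transcript length (loess span 0.3). The filter of the FPKM fits was 0.5 in 3 libraries. Coordinates are from GENCODE M21.

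The genes, lists and tests were chosen with earlier results of these data known. The rule named every chemokine gene, Atoh8, the smallest p of each list, the receptors, and 2 most similar genes each. Listed genes that were named only for context (Cxcl11, Cx3cl1, Irf1, Krt7, Krt19, Ifng) were chosen after their values were seen.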

Additional observations from a re-analysis of the deposited data

How the results depend on the processing

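The counts over all genes moved most. With all libraries, 102 genes were higher and 17 lower; the counts were 213 and 34 without a filter on low counts, 590 and 221 by DESeq2, 2576 and 2512 by limma-voom with quality weights, 317 and 335 with the GC and length offset, and 1710 and 3018 with that offset and without control replicate 1. Limma on log2(FPKM + 1) gave 27 lower. Leaving out 1 library at a time gave 0 to 2348 higher and 0 to 2284 lower, with 0 of each by edgeR when control replicate 2 or knockdown replicates 1 or 3 were left out, where 1633, 1130 and 1224 genes had an unadjusted p under 0.05.

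Among the 10 chemokine genes, 0 were higher and 0 lower under median ratio size factors, both other filters, both FPKM fits, the replicate block and each single library left out except control replicate 1. The number higher was 1 by DESeq2 and with the offset (Cxcl14 in both), 7 by limma-voom, and 6 with the offset and without control replicate 1; the number lower was 1 (Cxcl12) in those last 2 fits. Leaving out 1 library gave 0 to 6 higher and 0 lower. By limma-voom 1 of 9 other ligands was higher and 1 lower, 4 of 9 receptors were higher, and 10 of 23 regulators were higher and 1 lower. That fit called 18.7% of all genes higher and 18.2% lower. Without control replicate 1 and with the offset, 1 of 12 ligands was higher and 1 lower. In that fit 4 of 9 receptors were higher, and 6 of 24 regulators were higher and 2 lower, against 12.0% and 21.2% of all genes. DESeq2 called 1 of 14 receptors higher, against 3.73% of all genes. Single libraries left out gave 0 to 1 ligand in each direction, 0 to 4 receptors higher, and 0 to 9 regulators higher and 0 to 1 lower. These calls all came without control replicate 1, where 16.5% of all genes were higher and 16.1% lower.

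Signs turned for 2 genes. Ccl5 was at 0.14 by limma-voom, 0.53 without control replicate 1 and 0.44 with the offset added. Over the fits that leave out 1 library, Ccl5 ranged from -1.79 to 0.53 and Cxcl1 from -0.059 to 0.42. Cxcl1 was negative without control replicate 3 and without knockdown replicate 2, and was at -0.093 with the offset. The cause was not tested. The other 8 kept their sign in all 16 alternatives. Cxcl14 ranged from 1.55 to 2.58, and Ccl9 from 0.25 to 1.29. With the offset and all 6 libraries, Ccl9 was at 0.25 (SE 0.56), Ccl2 at 0.67 and Ccl6 at 0.73. In that same fit Cxcl14 was at 1.85 and Cxcl12 at -0.59.

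The replicate block gave 33 genes higher and 2 lower and no chemokine call. Deviations of same-numbered libraries correlated at 0.253, -0.082 and 0.290, and knockdown replicate 2 correlated best with control replicate 1, so the numbers were not taken as pairs. With 3 libraries a group, Ccl5, Ccl7, Cxcl2 and the lymphocyte receptors had few reads, which limits what can be seen of them.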
